A study of Mus musculus with 18 samples.

Results

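Complex I, the NADH:ubiquinone oxidoreductase of the inner mitochondrial membrane, is built largely from nuclear proteins whose genes carry symbols beginning with Nduf. All 46 protein-coding Nduf genes of the GENCODE vM21 annotation were present among the 27874 genes of the deposited expression table, and these 46 were taken by symbol. They were followed in oocytes of mice lacking Lsm14b (Lsm14b-/-, KO) and of wild-type mice (WT), collected as germinal vesicle oocytes (GV), as metaphase I oocytes (MI) and 14 h after hCG, a time that the labels denote as MII for both genotypes. Each of the 6 groups had 3 replicate libraries of 15 oocytes, 18 libraries in all. The labels give no strain, age or construction of the allele. Nor do they say how far the KO oocytes had progressed by the last time.

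Complex I takes electrons from NADH at a flavin, passes them along iron-sulfur clusters through its matrix arm to ubiquinone, and pumps protons through its membrane arm. The mitochondrial genome encodes the central proton-pumping subunits, and the nucleus encodes the core subunits of the matrix arm, a larger set of accessory subunits and the assembly factors that put the modules together. Fully grown oocytes store mRNA in ribonucleoprotein particles and translate or degrade it during meiotic maturation without new transcription, and Lsm14b encodes an RNA-binding protein of such particles.

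Levels are FPKM, fragments per kilobase of exon scaled to the depth of the library. That depth was 14227760 to 17183679 reads per library, as recovered from the FPKM values and not counted from the reads. Lsm14b itself was at 0 to 0.234 FPKM in the 9 KO libraries, and at 2.04 to 11.2 FPKM in the 9 WT libraries. All 10 oocyte marker genes reached 1 FPKM. At MII their summed level was 9639 to 10923 FPKM in KO, and 6965 to 7210 FPKM in WT. The 12 cumulus and granulosa markers summed to 2.83 to 3.84 FPKM in KO at MII, and to 5.02 to 7.03 FPKM in WT at MII, and their levels differed. Cyp19a1, the aromatase of granulosa cells, was at 1.89 to 6.09 FPKM over the 18 libraries, Inha reached 2.19 FPKM and Fshr 1.95 FPKM, and the other 9 stayed under 1 FPKM, with Amh at most 0.0792 FPKM and Foxl2 at most 0.0213 FPKM. The part of these markers in the results below was not tested. The SD of log2 deviations from the group mean over all genes tested was 0.522 in KO GV replicate 2 and 0.476 in KO GV replicate 3, against 0.185 to 0.327 in the other 16 libraries, so the counts of Nduf genes called at GV are also given without each of these. In bulk samples a lower level can mean less RNA per cell or fewer cells with it, and FPKM, being a share of each library, cannot separate a fall of 1 mRNA from a rise of others.

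The members differ in their annotated 3′ ends, and those of 9 members named in the results below are shown. The ends from which oligo(dT) priming started in these oocytes were not measured. The sequences are the last 30 bases of the annotated transcript (GENCODE vM21, GRCm38), written 5′ to 3′, with the first polyadenylation signal AATAAA or ATTAAA in capitals where these 30 bases hold one.
Ndufb3, chr1:58595935-58595964, + strand: tcttaAATAAAattaaaaagaaaactgtaa
Ndufc2, chr7:97407773-97407802, + strand: ctgttATTAAAatagttattacaaatcatc
Ndufa5, chr6:24518666-24518695, - strand: taaatgtgcaATTAAAtgctctgtgatgct
Ndufa6, chr15:82350140-82350169, - strand: ttgtgataaaattgcactggtgaacccctt
Ndufb5, chr3:32751537-32751566, + strand: gAATAAAtaaagccttagagtttacctgta
Ndufb11, chrX:20615326-20615355, - strand: cagaacaccttATTAAAggaattgaaagta
Ndufb7, chr8:83571597-83571626, + strand: gaAATAAAagctttgggtcacctgcctaaa
Ndufa9, chr6:126821721-126821750, - strand: atttggtataaatgagcacatagacaccta
Ndufaf4, chr4:24904972-24905001, + strand: tcagtccccAATAAActgcactgcaatcct
Of 45 members with such a sequence, 24 held AATAAA and a further 6 held ATTAAA in these 30 bases. The 43 members that could be tested had short messages. Their median 3′ UTR was 134 bases, and that of all protein-coding genes tested was 930 bases. Ndufaf4, an assembly factor, had the longest 3′ UTR of them at 3026 bases. The cytoplasmic polyadenylation element TTTTAT or TTTTAAT, searched on the sense strand, lay in the last 100 bases of 14.0% of tested members and of 20% of all protein-coding genes tested.

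Promoters of nuclear genes of mitochondrial proteins are known targets of the transcription factors NRF1 and YY1. RefSeq windows of 300 bases around the gene start (GRCm38.p6) were at hand for 40 of the 46 members. The NRF1 motif, the letters GCGCA, any base and GCGC, was searched on both strands. It was in a window of 9 of these 40 members, or 22.5%, and of 5.2% of all 27025 genes with such windows. The YY1 motif AAGATGGC, also on both strands, was in a window of 8 members, or 20%, and of 3.2% of these genes. The letters of the motifs overlapped in 0 of the members' windows. The motifs were not confined to members higher in KO. The NRF1 motif was also in a window of Ndufaf4, called lower in KO at MII. The YY1 motif was in a window of Ndufa9, called lower in KO at MI. A relation between the motifs and the genotype differences was not tested. A promoter with each motif is shown for members that were higher in KO at MII, with the match in capitals.
Ndufa6, chr15:82354242-82354541, - strand: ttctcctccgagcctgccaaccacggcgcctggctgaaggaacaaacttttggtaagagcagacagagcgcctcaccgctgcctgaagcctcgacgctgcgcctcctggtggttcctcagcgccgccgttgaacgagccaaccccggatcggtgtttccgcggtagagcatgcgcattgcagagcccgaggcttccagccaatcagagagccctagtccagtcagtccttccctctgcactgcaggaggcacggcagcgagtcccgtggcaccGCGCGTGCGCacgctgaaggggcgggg
Ndufb8, chr19:44555393-44555692, - strand: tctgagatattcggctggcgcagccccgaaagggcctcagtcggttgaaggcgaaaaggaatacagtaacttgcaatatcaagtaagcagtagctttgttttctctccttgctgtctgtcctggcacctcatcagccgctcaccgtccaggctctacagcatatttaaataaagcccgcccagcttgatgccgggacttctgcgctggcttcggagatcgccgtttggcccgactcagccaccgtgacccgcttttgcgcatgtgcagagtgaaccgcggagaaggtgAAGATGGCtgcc
These matches describe the letters of the window and are not measured binding sites.

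**Figure D1:**
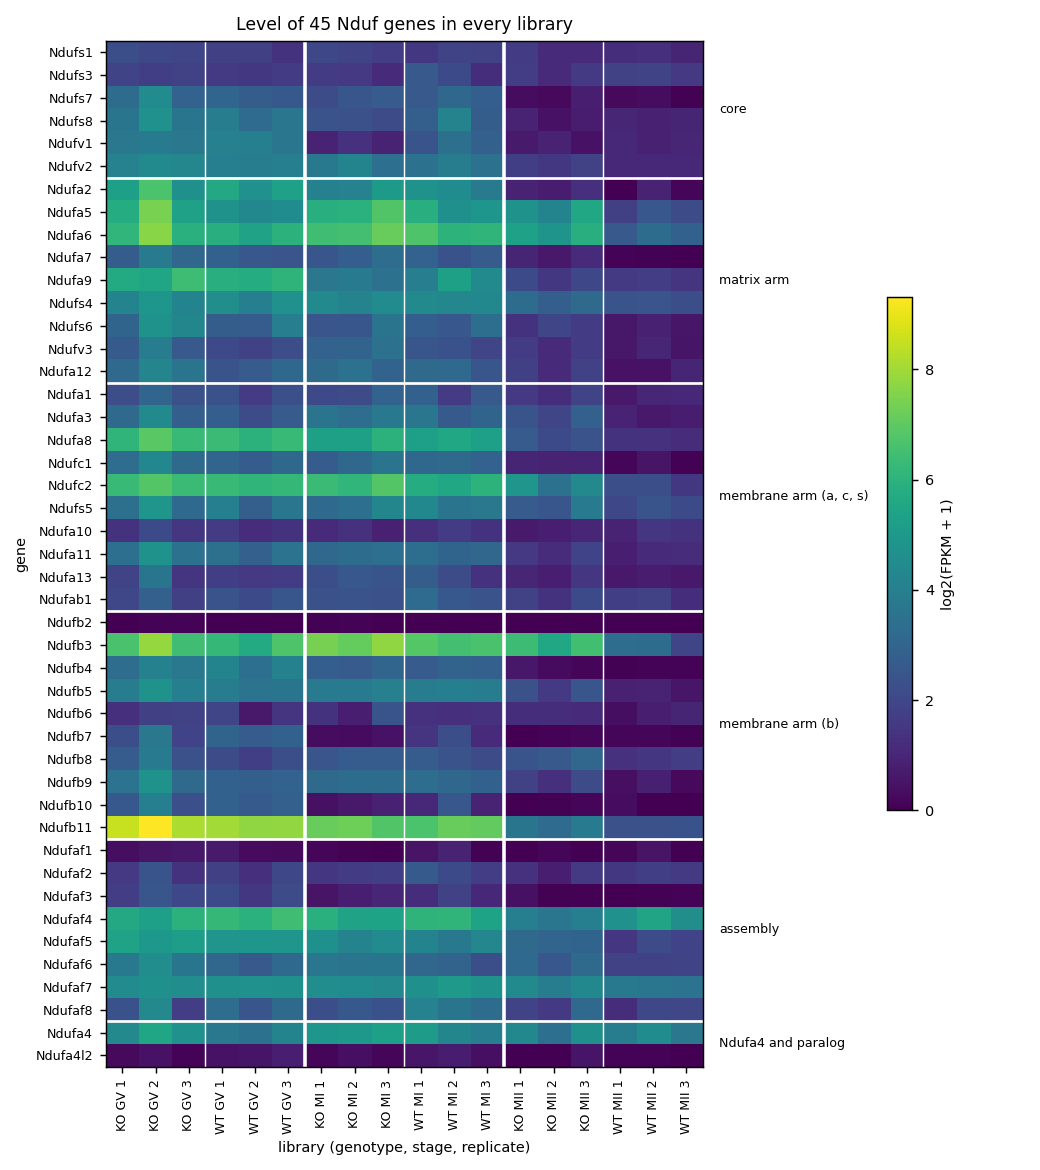
Level of 45 Nduf genes (rows, grouped by role) as log2(FPKM + 1) in each of the 18 libraries (columns, by stage, KO before WT). Ndufb11 is the brightest row at GV, most rows darken at MII, and Ndufb3, Ndufa5, Ndufa6 and Ndufc2 stay brighter in the KO libraries than in the WT libraries at MII.

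Averaged over the 18 libraries, Ndufb11, an accessory subunit of the membrane arm, had the highest level of the family at 155.6 FPKM, followed by Ndufb3, of the same arm, at 94.8 FPKM and Ndufa6, of the matrix arm, at 66.1 FPKM. The core subunit Ndufs1 averaged 2.19 FPKM and the core subunit Ndufv1 6.02 FPKM, so members of 1 complex differed widely in FPKM. The length in FPKM is that of all annotated exons of a gene. For Ndufs1 it is 8086 bases for a transcript of 2661 bases, and for Ndufb11 both are 908 bases. The order of genes by FPKM need not be their order by mRNA number. The assembly factor Ndufaf1, the membrane-arm subunit Ndufb2 and Ndufa4l2, a paralog of the complex IV protein Ndufa4, stayed under 1 FPKM in every library, with 0 to 20 reads each, and were not tested. The other 43 members reached 1 FPKM in at least 3 libraries.

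Some levels are less certain than the rest. Reads of Ndufab1, Ndufb4 and Ndufs6 may be shared with the pseudogenes Ndufab1-ps, Ndufb4c and Ndufs6b, near copies of them. Exons of other genes cover 65.6% of the exon bases of Ndufaf2, 39.0% of those of Ndufb6, 30% of Ndufa13, 19.5% of Ndufb9, 12.9% of Ndufb11 and 12.3% of Ndufb5, and the strand of the libraries is not given in the sources used here. The symbol Ndufb1-ps, annotated as a long noncoding RNA and so not a member, was at 44.9 to 78.6 FPKM in KO GV libraries, and at 44.1 to 68.9 FPKM in WT GV libraries.

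Most Nduf mRNAs were lower at MII than at MI in both genotypes. In KO oocytes, 24 of 43 tested members were lower at MII than at MI and 0 were higher, by limma on log2(FPKM + 1) with a Benjamini-Hochberg adjusted p under 0.05 over all 10320 genes tested. Of those genes, 10% were lower and 1.87% higher in this comparison. The median log2 change in KO was -1.29 over the members and -0.07 over all genes tested. In WT oocytes, 38 of the 43 were lower and 0 were higher, where 28.0% of all genes tested were lower and 5.01% higher. The median log2 change in WT was -2.12 over the members and -0.14 over all genes tested. The call held whichever 1 of the 18 libraries was left out for 19 members in KO and for 32 in WT.

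Ndufb11 shows the course in full. In KO oocytes it was at 365.5, 633.2 and 287.3 FPKM at GV, at 141.4, 152.0 and 108.0 FPKM at MI, and at 11.3, 8.51 and 13.5 FPKM at MII. In WT oocytes it was at 256.2, 213.7 and 224.2 FPKM at GV, at 100.3, 139.9 and 133.3 FPKM at MI, and at 3.98, 3.95 and 4.13 FPKM at MII. In both genotypes the stages did not overlap, and the mean level at MII was 2.59% of that at GV in KO and 1.74% in WT. Its log2 change from MI to MII was -3.48 ± 0.26 in KO (SE; limma, adjusted p = 1.86e-07) and -4.63 ± 0.26 in WT (adjusted p = 5.6e-10).

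Ndufa8, which lies on the intermembrane face of the complex, took the same course. It was at 5.33, 3.23 and 4.19 FPKM in KO at MII, against 38.1, 38.1 and 62.2 FPKM in KO at MI. In WT it was at 1.58, 1.48 and 1.29 FPKM at MII, against 36.8, 45.4 and 36.7 FPKM at MI. All MII libraries of either genotype were below all MI libraries of that genotype, with log2 changes of -3.15 in KO and -4.05 in WT (limma, adjusted p = 2.45e-07 and 1.04e-09).

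Ndufb4, whose reads may be shared with a near copy, was at 0.523, 0.211 and 0.105 FPKM in KO at MII, on 3 to 16 reads, and at 0.0507, 0.052 and 0.0526 FPKM in WT at MII, on 2 reads each. At GV it was at 9.1, 16.1 and 12.4 FPKM in KO, and at 17.6, 9.49 and 15.9 FPKM in WT. The GV values rested on 264 to 455 reads in KO and 298 to 513 reads in WT.

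Not every member was lower at the last time. Over the whole course from GV to MII, 33 of 43 members were lower in KO and 35 of 43 in WT, with 0 higher in either. Of all genes tested, 25.4% were lower and 11.9% higher in KO, and 28.8% were lower and 28.9% higher in WT. The members' median log2 change was -1.9 in KO and -2.41 in WT, and that of all genes was -0.07 in KO and 0.09 in WT. In WT, the core subunit Ndufs3 had a log2 change of 0.19 and Ndufa4 of 0.24, neither of which passed the test (limma, adjusted p = 0.559 and 0.583). The mean level of Ndufs3 at MII was 70.1% of that at GV in KO and 123.0% in WT. The core subunit Ndufs8 was at 4.02% of its GV level in KO and at 8.0% in WT, and Ndufs7 at 3.1% in KO and 2.56% in WT. The share of Ndufs7 in KO was 4.93% without KO GV replicate 2 and 1.75% without KO MII replicate 3. In WT this share was 1.76% without WT MII replicate 2 and 3.54% without WT MII replicate 3. Ndufs7 at MII rested on 5 to 20 reads in KO and 1 to 7 reads in WT.

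**Figure D2:**
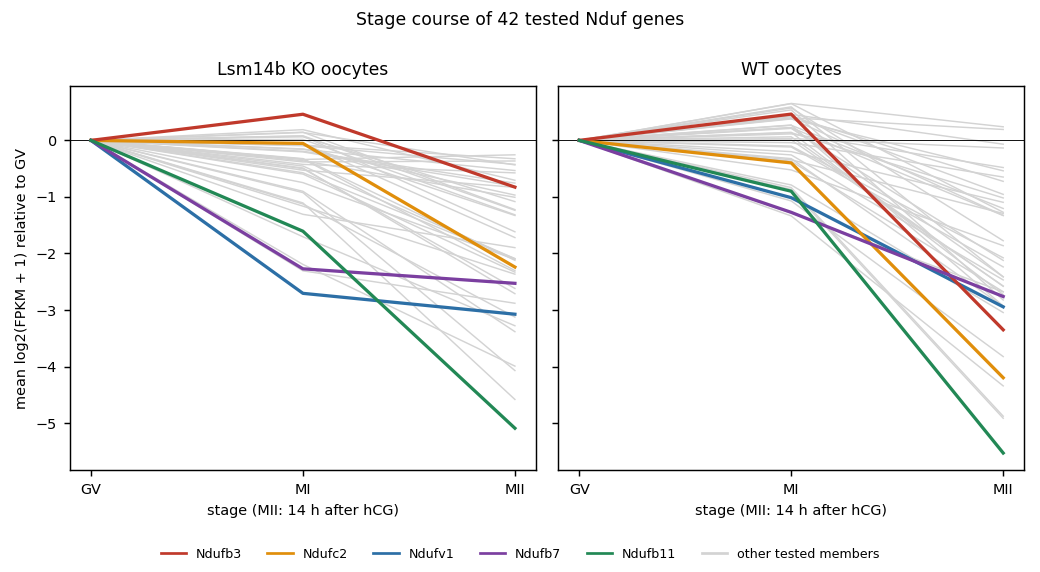
Mean log2(FPKM + 1) of 42 tested Nduf genes relative to GV (y axis) at GV, MI and MII (x axis), in KO oocytes (left) and WT oocytes (right), 3 libraries per point, with 5 genes in colour. Most lines drop between MI and MII, Ndufb3 and Ndufc2 end higher in KO than in WT, and Ndufv1 and Ndufb7 are already near their final level at MI in KO.

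At MII, more Nduf mRNAs were higher in KO than were lower. Of 43 tested members, 17 were higher and 1 was lower, where 14.9% of all genes tested were higher and 13.8% lower. The median log2 difference was 0.62 over the members and 0.01 over all genes. All 3 KO libraries were above all 3 WT libraries for 26 members, and below them for 1, where 25.8% and 24.8% of all genes tested did so. In all, 12 of the 17 higher members kept the call whichever library was left out.

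Among the flavoprotein and iron-sulfur core subunits, which carry the electrons, 1 of 7 was higher and 0 were lower, with a median log2 difference of 0.16. The shares over all genes tested were 14.9% higher and 13.8% lower, so 1 of 7 higher is close to the share of all genes. The higher core subunit was Ndufv2, at 2.34, 1.83 and 2.46 FPKM in KO and at 1.04, 1.1 and 1.08 FPKM in WT, a log2 difference of 0.62 (limma, adjusted p = 0.0411). Ndufv1, which binds NADH and the flavin, was at 0.606, 0.907 and 0.364 FPKM in KO and at 1.04, 0.82 and 1.0 FPKM in WT. Its groups overlapped and its log2 difference was -0.28 (95% interval -0.79 to 0.24; adjusted p = 0.436).

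Of the accessory subunits of the matrix arm, 5 of 9 were higher, against 14.9% of all genes tested. The median log2 difference of these subunits was 0.86. Ndufa5 was at 26.2, 17.5 and 47.4 FPKM in KO and at 2.41, 4.71 and 3.46 FPKM in WT. The groups were far apart, with means of 30.3 ± 15.4 FPKM in KO and 3.53 ± 1.15 FPKM in WT (SD, n = 3 each), and a log2 difference of 2.71 ± 0.46 (SE; limma, adjusted p = 0.00023). Ndufa6, a LYR-motif protein that holds an acyl carrier protein on the arm, was at 39.4, 27.3 and 57.0 FPKM in KO and at 5.08, 8.68 and 6.37 FPKM in WT. All KO libraries were again above all WT libraries, and the log2 difference was 2.42 ± 0.39 (adjusted p = 0.000136). The other 3 were Ndufa7, Ndufa12 and Ndufs4, with log2 differences of 0.86, 0.96 and 0.73. Ndufa7 in WT at MII rested on 0 to 2 reads, and on 16 to 37 reads in KO.

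Of the membrane-arm accessory subunits with symbols in a, c or s, together with the acyl carrier Ndufab1, 3 of 10 were higher. The share over all genes tested was 14.9%, and the median log2 difference of these subunits was 0.68. Ndufc2 was at 27.7, 10.2 and 20.1 FPKM in KO and at 3.7, 3.71 and 1.88 FPKM in WT, a log2 difference of 2.24 ± 0.31 (SE; limma, adjusted p = 2.79e-05). Ndufa3 was at 4.37, 2.9 and 6.22 FPKM in KO and at 0.87, 0.535 and 0.662 FPKM in WT, a log2 difference of 1.66 ± 0.35 (adjusted p = 0.00151). For both genes every KO library was above every WT library. Ndufa8 had a log2 difference of 1.08 (adjusted p = 0.00343).

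Of the Ndufb subunits of the membrane arm, 5 of 9 were higher, against 14.9% of all genes tested. The median log2 difference of these subunits, 1.21, was the highest of the role groups with more than 1 tested member. Ndufb3 was at 83.4, 46.1 and 88.0 FPKM in KO and at 8.94, 8.84 and 2.9 FPKM in WT. Its mean was 10.5 times as high in KO, at 72.5 ± 23.0 FPKM in KO and 6.89 ± 3.46 FPKM in WT (SD, n = 3 each), with a log2 difference of 3.29 ± 0.4 (SE; limma, adjusted p = 8.04e-06), the largest of all members. Ndufb5 was at 3.92, 1.99 and 4.56 FPKM in KO and at 0.807, 0.84 and 0.48 FPKM in WT, a log2 difference of 1.35 (adjusted p = 0.000644). Again no KO library reached down to the WT range.

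Ndufb11, at the MII levels given above, differed by 1.25 on the log2 scale (limma, adjusted p = 0.00157), Ndufb9 by 1.27 and Ndufb8 by 1.21. Ndufb7 and Ndufb10, which face the intermembrane space, were at most 0.244 FPKM in the 6 MII libraries, with 0 to 9 reads each, so that a difference between genotypes was not detectable at this depth.

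Of the assembly factors, 3 of 7 were higher and 1 was lower. Over all genes tested, 14.9% were higher and 13.8% lower, so 1 of 7 lower is close to the share of all genes. Ndufaf5, which hydroxylates the core subunit Ndufs7, was at 8.2, 7.15 and 7.04 FPKM in KO and at 1.76, 3.43 and 2.65 FPKM in WT, a log2 difference of 1.25 (limma, adjusted p = 0.000405). Ndufaf6 was at 8.07, 4.71 and 8.37 FPKM in KO and at 2.45, 2.61 and 2.79 FPKM in WT, a log2 difference of 1.12 (adjusted p = 0.00594). Both had KO libraries wholly above the WT libraries, as had Ndufaf7, a methyltransferase, with a log2 difference of 0.59.

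Ndufaf4, which works with Ndufaf3 early in assembly, went the other way. It was at 15.1, 11.6 and 15.1 FPKM in KO and at 25.0, 42.3 and 23.1 FPKM in WT, a log2 difference of -1.02 (limma, adjusted p = 0.0102). The groups did not overlap, but the call was lost without WT MII replicate 2, the highest of them, where the log2 difference was -0.75. Ndufa4, which is now placed with complex IV, was at 19.4, 9.58 and 24.8 FPKM in KO and at 14.2, 22.1 and 11.9 FPKM in WT, with overlapping groups.

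**Figure D3:**
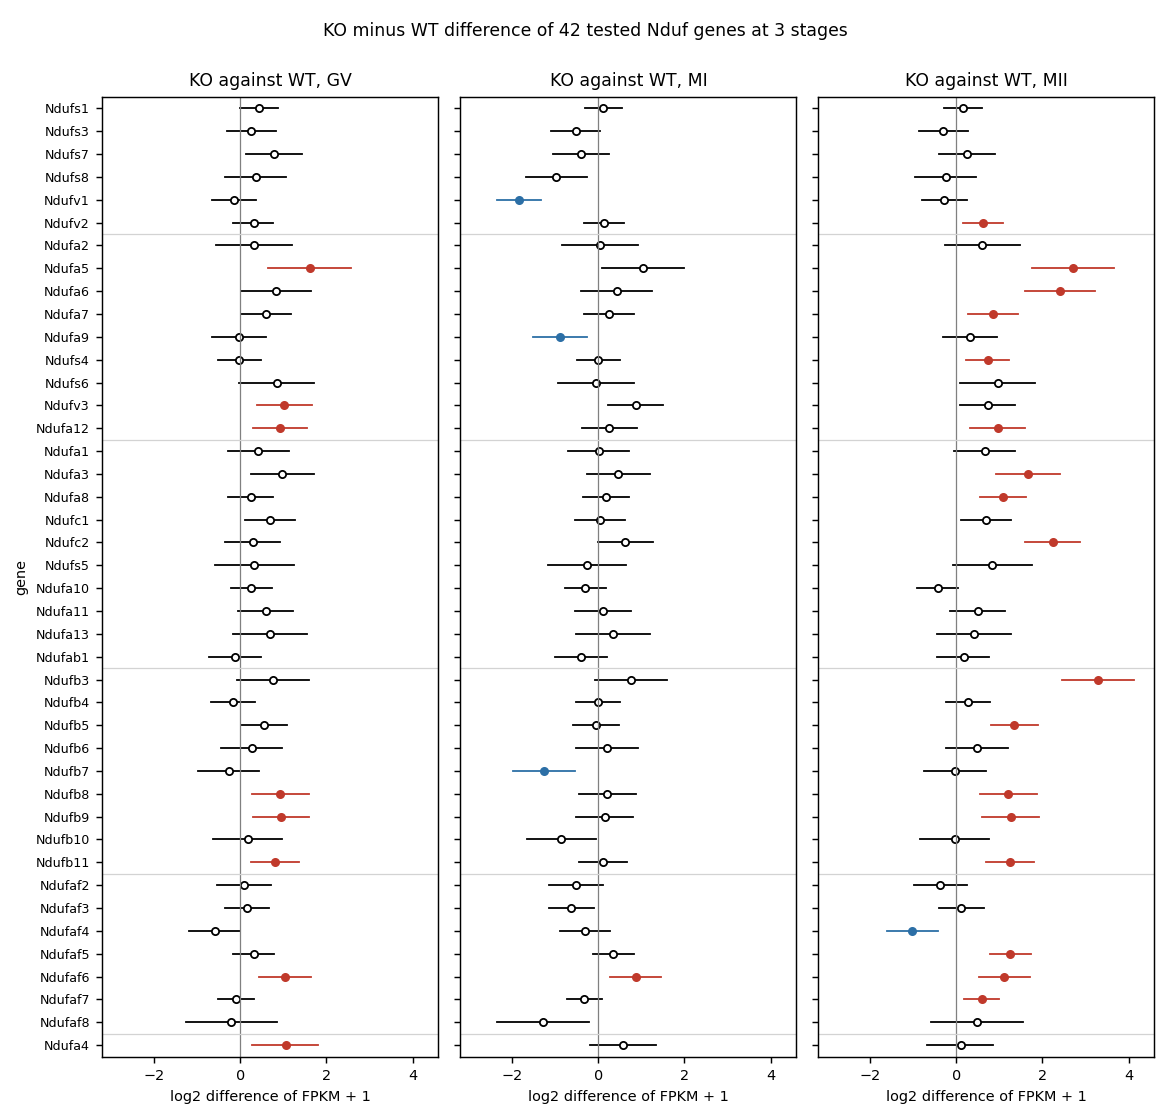
KO minus WT difference of log2(FPKM + 1) with its 95% interval (x axis) for 42 tested Nduf genes (rows, grouped by role) at GV, MI and MII. Filled points passed the test, red where higher in KO and blue where lower. At MII 17 points are red, led by Ndufb3 at 3.29, and at MI Ndufv1 is the lowest at -1.84.

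At MI the genotypes differed at few members. Of the 43, 1 was higher and 3 were lower in KO, where 3.63% of all genes tested were higher and 13.7% lower. The median log2 difference was 0.04 over the members and -0.13 over all genes. This split was 3 higher and 3 lower with median-of-ratios scaling, 2 and 3 with quantile normalization, and 3 and 2 with voom on recovered reads. It was 3 and 6 without KO GV replicate 2, 2 and 5 without KO GV replicate 3, and 0 and 1 without WT MI replicate 2. It was 0 and 2 without any 1 of WT GV replicate 1, KO MI replicates 1, 2 and 3, and WT MII replicates 1, 2 and 3.

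The clearest was Ndufv1. It was at 0.867, 1.52 and 0.913 FPKM in KO and at 4.28, 9.83 and 6.19 FPKM in WT, with the highest KO library well below the lowest WT library. The log2 difference was -1.84 ± 0.24 (SE; limma, adjusted p = 5.67e-05), and the call was kept under all alternatives run. At GV the gene had been at 12.2, 13.1 and 12.4 FPKM in KO and at 15.8, 15.1 and 11.5 FPKM in WT, which overlap.

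Ndufb7 was at 0.228, 0.193 and 0.362 FPKM in KO and at 1.73, 3.69 and 1.17 FPKM in WT, a log2 difference of -1.27 (limma, adjusted p = 0.0149). It did not pass without WT MI replicate 2, where the log2 difference was -0.95. Ndufa9, at the joint of the matrix and membrane arms, was at 12, 13.2 and 10.2 FPKM in KO and at 14.8, 38.4 and 20.2 FPKM in WT. Its log2 difference of -0.89 (adjusted p = 0.0463) was lost in 22 of the alternatives run, among them both scalings.

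Ndufaf6 was the member higher in KO at MI, at 11.5, 11.1 and 11.3 FPKM in KO and at 7.39, 6.72 and 3.7 FPKM in WT (log2 difference 0.87; limma, adjusted p = 0.0417). Its groups did not overlap, though the call was lost in 11 of the alternatives run, with differences of 0.61 to 0.97, without WT MI replicate 2 or 3 among them. Ndufaf6 was also the member that passed at all 3 stages.

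From GV to MI, 12 of 43 members were lower in KO and 0 were higher, where 10.4% of all genes tested were lower and 2.53% higher. In WT 4 were lower and 0 higher, where 2.06% were lower and 2.75% higher. The members' median log2 change was -0.38 in KO and 0.03 in WT, and that of all genes was -0.03 in KO and 0.24 in WT. The WT count depended on how libraries were scaled. It was 11 with median-of-ratios scaling, which put the median of all genes at -0.04, 8 with quantile normalization and 8 with voom. It was 8 without KO GV replicate 2, 8 without KO GV replicate 3, 1 without WT GV replicate 2, 1 without WT GV replicate 3, and 0 without WT GV replicate 1 or WT MI replicate 1.

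The 12 members lower in KO from GV to MI included 4 of 7 core subunits, among them Ndufs7, Ndufs8 and Ndufv1, and 4 of 9 Ndufb subunits. The share of all genes tested that were lower in KO over this step was 10.4%. Ndufv1 had log2 changes of -2.7 in KO and -1.01 in WT (limma, adjusted p = 1.03e-06 and 0.0273). Ndufb7, at 3.67, 12.1 and 2.67 FPKM at GV in KO and at 7.0, 5.57 and 6.45 FPKM at GV in WT, had log2 changes of -2.27 in KO and -1.27 in WT (adjusted p = 0.000163 and 0.0389). Ndufa9, at 50.7, 44.0 and 84.0 FPKM at GV in KO and at 57.0, 53.8 and 65.8 FPKM at GV in WT, had log2 changes of -2.2 in KO and -1.34 in WT (adjusted p = 6.51e-05 and 0.0207). These 3 and Ndufb4 were lower in both genotypes.

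A test of the difference between the genotypes in the change from GV to MI, added after the other results had been seen, called 0 of 43 members by limma and 0 by voom. It called 0.0775% of all genes tested. At an unadjusted p under 0.05 it gave 5 members, and with library quality weights or without KO GV replicate 3 it called 2. The smallest unadjusted p of a member was 0.000103 for Ndufv1, whose difference was -1.69 (95% interval -2.41 to -0.97; limma, adjusted p = 0.0837). The larger count of members lower in KO is therefore not shown to be a difference from WT.

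The 12 members lower in KO from GV to MI had a median GC content of 54.6% in their transcripts, and the other 31 tested members one of 50%. Across the 43 genes, the log2 change from GV to MI in KO had Pearson's r of -0.45 and Spearman's rho of -0.47 with GC content, given as a description over genes that share the same libraries. It was the strongest of 12 such correlations computed, of 4 comparisons with GC content, 3′ UTR length and transcript length. The r with GC content was -0.26 for KO against WT at MI, -0.05 for KO against WT at MII and -0.13 for MII against GV in WT, and the r with either length ranged from -0.42 to 0.24. No such correlation was computed for GV to MI in WT, or without KO GV replicate 2. The relation with GC content is therefore not shown to be particular to KO.

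At GV, 8 of 43 members were higher in KO and 0 were lower, where 13.3% of all genes tested were higher and 7.49% lower. The median log2 difference was 0.36 over the members and 0.17 over all genes. These calls were lost with single libraries of either genotype, as a count of 0 higher was reached without KO GV replicate 2 and without WT GV replicate 2. Without KO GV replicate 2, 0 members were higher and 1 was lower, Ndufb7 with a log2 difference of -0.82 (limma, adjusted p = 0.0406), a gene named here after its values were seen. In KO GV replicate 2 the members lay a median of 0.63 above their group mean on the log2 scale, and all genes a median of 0.188.

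Ndufa5 was at 53.4, 171.8 and 39.0 FPKM in KO at GV and at 26.7, 19.5 and 22.1 FPKM in WT at GV, and replicate 2 alone gave the value of 171.8. The log2 difference was 1.61 (limma, adjusted p = 0.0214) with all libraries. Other genes showed the same high library. Ndufv3, an accessory subunit beside the flavoprotein, was at 5.23, 14.2 and 5.06 FPKM in KO and at 3.17, 2.6 and 3.58 FPKM in WT, with a log2 difference of 1.02 (adjusted p = 0.0267). Ndufaf6 was at 12.5, 22.7 and 11.3 FPKM in KO and at 7.46, 4.99 and 8.08 FPKM in WT, a log2 difference of 1.03 (adjusted p = 0.0181).

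In these 3 genes every KO library was above every WT library, and in each the KO group was led by replicate 2. Without that library the log2 differences were 0.98 for Ndufa5, 0.59 for Ndufv3, 0.49 for Ndufb11 and 0.74 for Ndufaf6, and none passed. Without KO GV replicate 3 they were 2.04, 1.25, 1.06 and 1.21 in the same order, and all 4 passed. None of the 4 passed without WT GV replicate 2 or in a fit of the GV groups alone. The mitochondrial mRNA mt-Nd1 was at 247.8 FPKM in KO GV replicate 2, against 2220 and 3437 FPKM in the other 2 KO GV libraries. The mitochondrial complex I genes did not all go this way. In the KO GV group mt-Nd4 and mt-Nd5 were also lowest in replicate 2, at 105.5 and 32.1 FPKM. By contrast, mt-Nd2, mt-Nd3, mt-Nd4l and mt-Nd6 were lowest in replicate 3. The count of members called was also 13 higher and 1 lower without KO GV replicate 3. It was 2 higher without WT GV replicate 1, 2 without WT GV replicate 3, 0 without WT GV replicate 2 and 5 without KO MII replicate 1, with 0 lower in each.

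**Figure D4:**
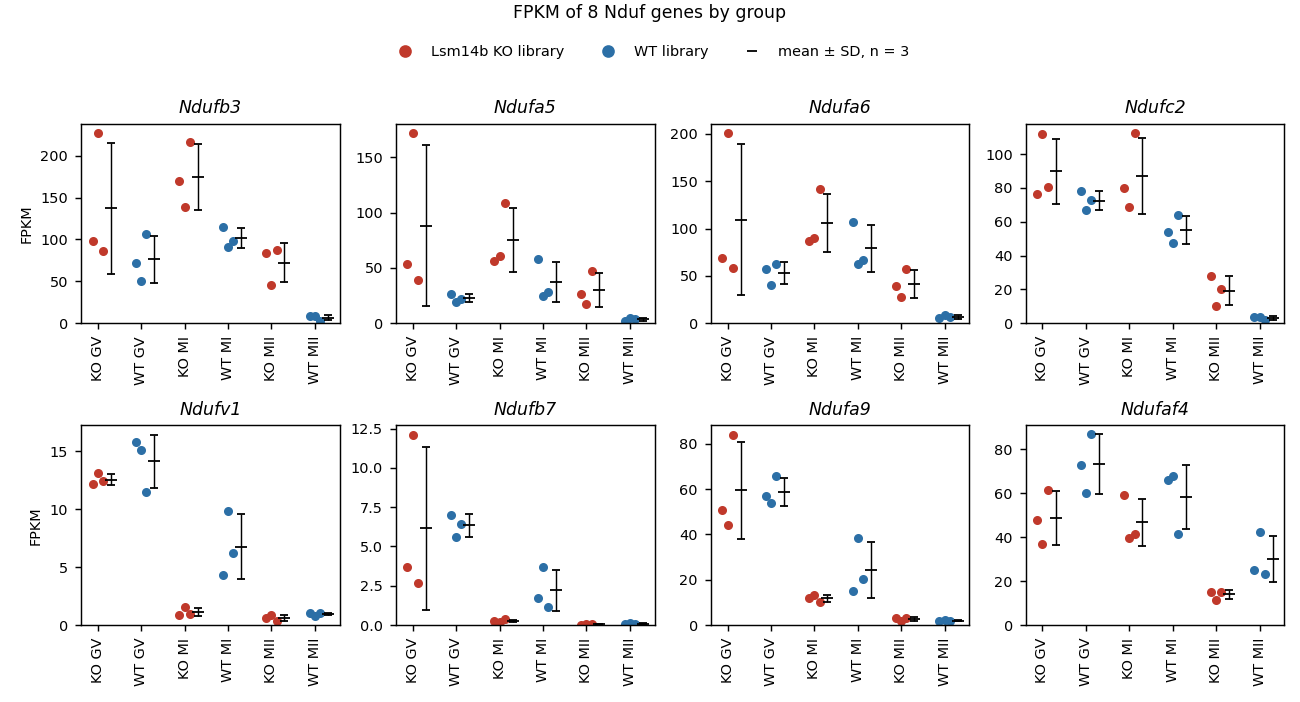
FPKM (y axis, linear) of 8 Nduf genes in each library, by stage with KO (red) left of WT (blue), and the mean ± SD of each group of 3. KO GV replicate 2 is the high point of Ndufb3, Ndufa5, Ndufa6 and Ndufb7 at GV, the WT points of the upper 4 genes are near 0 at MII, and the KO points of Ndufv1 and Ndufb7 are near 0 from MI on.

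The difference between genotypes in the change from MI to MII was tested directly. The fall was called smaller in KO for 5 of 43 members and larger for 0. Of all genes tested, 4.33% were called with a positive and 0.0291% with a negative difference. The median over the members was 0.73 and that over all genes 0.11. These 5 were Ndufb3, with a difference of 2.53 (limma, adjusted p = 0.0146), Ndufa6 with 1.99 (adjusted p = 0.0448), Ndufc2 with 1.61 (adjusted p = 0.0395), Ndufv1 with 1.56 (adjusted p = 0.014) and Ndufb5 with 1.41 (adjusted p = 0.0316). With the replicate number as a block, Ndufb3 and Ndufv1 passed, while Ndufa6, Ndufc2 and Ndufb5 had adjusted p of 0.0749, 0.0576 and 0.0531. Of 27 alternatives, the call was lost in 17 for Ndufa6, 15 for Ndufc2 and 12 for Ndufb5, and in 1 each for Ndufb3 and Ndufv1, with positive differences throughout.

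The difference of Ndufb3 can be read from its levels. It was at 169.3, 138.6 and 216.2 FPKM in KO at MI and at 115.1, 91.6 and 97.8 FPKM in WT at MI, so that at MI, as at MII, all KO libraries were above all WT libraries, though the difference at MI did not pass the test (log2 difference 0.76; limma, adjusted p = 0.206). At GV it was at 98.3, 227.0 and 86.2 FPKM in KO and at 71.9, 50.8 and 106.0 FPKM in WT. The mean level at MII was 52.8% of that at GV in KO, or 78.6% without KO GV replicate 2, and 9.04% in WT.

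Ndufv1 reached its difference in another way, since it was already at 0.867 to 1.52 FPKM in KO at MI. Its log2 change from MI to MII was -0.37 in KO and -1.93 in WT (limma, adjusted p = 0.37 and 4.76e-06). At MII it was at 4.99% of its GV level in KO and at 6.73% in WT.

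Over the course from GV to MII, 2 members were called with a smaller fall in KO and 0 with a larger one. Of all genes tested, 3.88% were called with a positive and 1.73% with a negative difference. Ndufb3 differed by 2.52 (limma, adjusted p = 0.0145) and Ndufc2 by 1.96 (adjusted p = 0.0137). Ndufc2 was at 76.6, 111.8 and 80.7 FPKM in KO at GV and at 77.9, 66.7 and 72.7 FPKM in WT at GV, where the groups overlap, and its mean level at MII was 21.5% of that at GV in KO and 4.27% in WT. The call of Ndufc2 was lost without KO MII replicate 1 or WT MII replicate 3, where its difference was 1.66 to 1.72 and 1 member was called. Without KO GV replicate 2, the difference from MI to MII was called for 11 members. That count was 2 without any 1 of KO MI replicates 1 and 2, WT MI replicates 2 and 3, KO MII replicates 1 and 3, and WT MII replicates 2 and 3, and 3 without WT GV replicate 1, WT GV replicate 2 or WT MII replicate 1. Ndufb3 and Ndufv1 passed from MI to MII whichever library was left out.

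The members that led the difference at MII were abundant in both genotypes at MI. In KO at MI, Ndufa5 was at 56.4, 61.2 and 108.2 FPKM, Ndufa6 at 86.6, 90.5 and 141.5 FPKM, and Ndufc2 at 79.7, 68.9 and 112.4 FPKM. In WT at MI, Ndufa5 was at 58.1, 24.8 and 28.5 FPKM, Ndufa6 at 107.5, 63.1 and 66.7 FPKM, and Ndufc2 at 53.8, 47.4 and 63.8 FPKM. For these 3 genes the ratio of the KO mean to the WT mean was largest at MII, and none of them passed at MI. Ndufa5 was already 3.87 times as high in KO at GV, against 8.6 times at MII. It passed at GV, though not without KO GV replicate 2. The groups of Ndufc2 did not overlap at MI, while those of Ndufa5 and Ndufa6 did.

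The mitochondrially encoded subunits of complex I took a course opposite to that of most Nduf genes. Of 7, 3 were higher at MII than at GV in KO, with a median log2 change of 1.33 that was 0.65 without KO GV replicate 2, and 7 were higher in WT, with a median of 2.19. Of all genes tested, 11.9% were higher in KO and 28.9% in WT. In WT at GV, mt-Nd3 rested on 2 to 22 reads and mt-Nd4l on 3 to 5. At MII, 2 of 7 were lower in KO than in WT and 0 were higher, where 13.8% of all genes tested were lower and 14.9% higher. The count of lower mitochondrial genes ranged from 0 to 4 as single libraries were left out. It was 0 when the one left out was KO MII replicate 2 or either of WT MII replicates 2 and 3, 1 for KO GV replicate 1, WT MI replicate 2 and KO MII replicate 1, and 4 for KO GV replicates 2 and 3. The 2 genes called with all libraries were mt-Nd5, at 162.3, 136.5 and 183.5 FPKM in KO and at 233.6, 351.6 and 382.7 FPKM in WT (log2 difference -0.98; limma, adjusted p = 0.0367), and mt-Nd2, at 711.2, 500.7 and 1372 FPKM in KO and at 1295, 2152 and 2192 FPKM in WT (log2 difference -1.21; adjusted p = 0.0469). The groups of mt-Nd5 did not overlap, and those of mt-Nd2 did. Oligo(dT) priming measures these messages only as far as they carry a poly(A) tail.

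Of 12 assembly factors without an Nduf symbol in the table, 8 were tested, and 3 of these were higher and 0 lower in KO at MII. Of all genes tested, 14.9% were higher and 13.8% lower. Dmac1 was at 10.7, 3.09 and 12.5 FPKM in KO and at 1.36, 0.984 and 0.996 FPKM in WT, and Nubpl, which delivers iron-sulfur clusters, was at 7.14, 4.18 and 8.83 FPKM in KO and at 2.02, 1.62 and 2.21 FPKM in WT (limma, adjusted p = 0.000602 and 0.000357). Dmac2 had a log2 difference of 1.74.

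The nuclear subunits of complexes II to V, the remainder of the oxidative phosphorylation system, were counted in the same way. Of 38 tested, 22 were higher and 0 lower in KO at MII, with a median log2 difference of 0.92. That count was 12 when replicate 3 of either MII group was left out, and 13 with no level filter. Over all genes tested, 14.9% were higher and 13.8% lower in KO at MII, with a median log2 difference of 0.01. From MI to MII, 21 of the 38 were lower and 2 higher in KO, and 33 were lower and 0 higher in WT. The 2 calls of higher genes in KO were both lost when KO MI replicate 3, or KO MII replicate 2, was left out. The shares over all genes tested from MI to MII were 10% lower and 1.87% higher in KO. In WT they were 28.0% lower and 5.01% higher. At MII the higher members were 3 of 4 in complex II, 4 of 9 in complex III, 9 of 11 in complex IV and 6 of 14 in complex V, beside 17 of 43 Nduf genes. The difference between these shares was not tested.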

How the data were processed

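Per the labels' protocols, cDNA of 15 oocytes was primed with oligo(dT), amplified by the Smart-seq2 method, sheared and sequenced, so levels may depend on poly(A) tails. The authors deposited 1 table of FPKM values for the 18 libraries, and how they computed it is not given in the sources used here. The submitters' processing notes list the build mm10, and DESeq2 1.38.3 for an unstated step. Gene IDs were matched to GENCODE vM21, in which 27829 of 27874 were found. FPKM times exon length gave whole reads within 0.05 read for 92.8% to 93.3% of values per library. These recovered reads served for depth and for voom, and cover counting error only, since reads were not counted by molecule.

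The 10320 genes that reached 1 FPKM in 3 or more libraries were tested with 1 limma 3.58.1 model (R 4.3.3) of log2(FPKM + 1), fitted with 6 group means, a trended variance and 12 degrees of freedom. Fold changes are on this scale, and those of low genes come out too small. P-values are two-sided and adjusted by Benjamini-Hochberg within each comparison. No scaling between libraries was added. The fit was also run on simulated data, with the same spread of a gene in all libraries and changes only in genes well above 0. That run does not cover the wider spread of KO GV replicates 2 and 3, or members near 0 at MII. The labels do not say whether replicates came from separate animals, so p-values measure the spread between these libraries.

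UTR lengths and 3′ ends come from 1 annotated principal transcript per gene. The counts cover all members, of which 1 is not reported singly here. The members, role groups and pathway lists were chosen with earlier results of these data known. Values per library are given for Ndufb3, for up to 8 called members at MII and up to 4 at GV and at MI with the smallest p in each direction, up to 3 per stage change and genotype difference, members called against the majority, and the 3 of highest mean. Alternatives were a pseudocount of 0.1, no level filter or one at 5 FPKM, scaling by median of ratios or by quantiles, only the groups compared, the replicate number as a block, voom, library quality weights, and leaving out each library. The genotype difference from GV to MI, and the alternatives for the pathway lists and for shares of the GV level, were added after the data were seen. Tables used Python 3.11.15 with pandas 2.3.3, and figures matplotlib 3.10.9.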

Additional observations from a re-analysis of the deposited data

Results flagged for a closer look

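Between MI and MII the genotypes differed, by a limma test of the difference itself, for 5 Nduf genes. The log2 change in KO minus that in WT was 2.53 for Ndufb3, 1.99 for Ndufa6, 1.61 for Ndufc2, 1.56 for Ndufv1 and 1.41 for Ndufb5, so each fell less in KO over this step. Of all genes tested, 4.33% were called with a positive and 0.0291% with a negative difference in the same test, so calls over all genes were mostly positive too. By sign alone, without a threshold, 5952 genes had a positive and 4367 a negative difference. The calls of Ndufa6, Ndufc2 and Ndufb5 were lost in 17, 15 and 12 of 27 alternatives, the replicate block among them, and those of Ndufb3 and Ndufv1 in 1 each. From GV to MII the difference was 2.52 for Ndufb3 and 1.96 for Ndufc2. Here 3.88% of all genes tested were called with a positive and 1.73% with a negative difference. Ndufv1 stands apart from the other 4, since its level in KO was already low at MI. The groups of 3 libraries were too small to look for single outlying values.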

How the results depend on the processing

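Of 40 named changes, 24 kept their call under all alternatives run, and of their 1080 alternative values 990 kept the call, 90 lost it and 0 changed sign. The counts of members called in KO against WT at MII and in the changes from MI to MII and from GV to MII within each genotype stayed within 1.5 times under the other settings. The remaining counts moved. KO against WT at GV (8 members called) gave 5 with a pseudocount of 0.1, 1 with no filter, 3 with median-of-ratios scaling, 0 in a fit of only these groups, 3 with voom and 14 with library quality weights. KO against WT at MI (4) gave 1 with no filter and 9 with weights. GV to MI in WT (4) gave 1 with a pseudocount of 0.1, 1 with no filter, 8 with a filter at 5 FPKM, 11 with median-of-ratios scaling, 8 with quantile normalization, 7 in a fit of only these groups, 8 with voom and 10 with weights, and GV to MI in KO (12) gave 7 in a fit of only these groups. The genotype difference from MI to MII (5) gave 10 with a pseudocount of 0.1, 1 with no filter, 3 with either scaling, 8 in a fit of only these groups and 20 with weights. That from GV to MII (2) gave 4 with a pseudocount of 0.1, 1 with no filter, 7 with median-of-ratios scaling, 9 with voom and 14 with weights, and that from GV to MI (0) gave 2 with weights. The cause of these shifts was not tested. The lowest library weights were 0.2097 for KO GV replicate 2 and 0.2441 for KO GV replicate 3. Leaving out each library in turn gave 0 to 14 members for KO against WT at GV, 1 to 9 at MI and 12 to 21 at MII, 0 to 8 from GV to MI in WT, 8 to 12 from GV to MI in KO, 2 to 11 for the difference from MI to MII, 1 to 3 for that from GV to MII and 0 to 2 for that from GV to MI. With the replicate block, KO against WT at MI gave 2 members and the difference from MI to MII 2. The numbers were not treated as pairs, since deviations of same-numbered libraries correlated at -0.52 to 0.42, over 0.1 in 15 of 45 pairs. Low read numbers at MII, 0 to 2 for Ndufa7 in WT, limit what could be detected there.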
